A study of Mus musculus with 34 samples.

Results

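The genes described here are the secreted Wnt ligands, their Frizzled and LRP receptors, the extracellular Wnt antagonists and 4 genes that respond to the pathway. They were followed through the life of the mouse cornea on Affymetrix gene arrays. The list held 40 genes chosen by name: 15 ligands, 12 receptors, 9 antagonists and the response genes Axin2, Lef1, Nkd1 and Tcf7. A member was read from a probe set that carried its symbol and no other, and where several did, from the one with the highest mean. Of the 40 genes, 39 had such a probe set, among 19938 symbols read in this way. Tcf7 was not analysed here.

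Whole corneas came from wild-type CB6 mice at 12 ages, with surrounding tissue dissected off the globe. Embryonic days E14.5, E15.5 and E17.5, postnatal days P3, P7, P14 and P28, and 2 months had 3 arrays each, and 6 months, 1 year, 18 months and 2 years had 2 each, 32 arrays in all. A further 2 arrays held 1 layer each: epithelium of P28, lifted with dispase, and stroma of P7, captured by laser from sectioned globes. These ages are those of the sample labels, while the design text speaks of 1 time point for both layers. No label says that the replicates of an age were separate animals, so the p-values reflect the spread among these arrays alone.

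Wnt proteins are secreted, lipid-modified signals that bind Frizzled receptors on nearby cells. In the canonical branch an LRP co-receptor joins the complex, beta-catenin escapes destruction and enters the nucleus, and genes bound by TCF and LEF factors are switched on. Secreted antagonists limit the signal outside the cell: SFRP proteins bind the ligands, and most DKK proteins bind the LRP co-receptor. In the mouse, loss of Dkk2 turns the corneal epithelium toward a skin-like fate.

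Values are the authors' intensities, which are linear, and differences are of log2(intensity + 16). A gene was tested if it lay above the array's median on at least 2 of the 32 arrays, which 12996 genes did. It was called when limma's adjusted p was under 0.05 and the log2 difference was at least 1, or, over several ages, the highest and lowest age means lay at least 1 apart. Of the members, 25 passed the filter: 7 ligands, 10 receptors, 5 antagonists and 3 response genes. The 14 that did not pass were above the median on 0 or 1 array. They were Wnt2, Wnt3, Wnt3a, Wnt6, Wnt7a, Wnt9a, Wnt10b, Wnt16, Fzd8, Fzd10, Sfrp4, Sfrp5, Frzb and Wif1, and their age means lay between 58.3 and 255.

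Some arrays stood apart. The summed intensity of 10 epithelial marker genes ran from 28900 to 40480 on the E15.5 arrays, against 2280 to 8729 on the E14.5 arrays. Stromal markers summed to between 44450 and 52360 at E15.5, against 3247 to 11970 at E14.5, and blood genes to between 602.6 and 1148 at E15.5, against 22820 to 33180 at E14.5. Lens genes were high on E14.5 replicates 2 and 3 and on 1 array each of P14, P28, 2 months and 6 months. A fit without these lens-high arrays keeps only replicate 1 at E14.5 and at 6 months. Muscle genes were highest on E17.5 replicates 1 and 3, 46470 and 39500, and retina genes on 6-month replicate 1, 24620. Only those arrays were left out as high in muscle or retina genes. Smaller sums stood out on others, among them 17860 for muscle on E15.5 replicate 1 and 12420 on E14.5 replicate 2. Retina genes summed to 8137 and 9042 on 2-month replicates 1 and 2 and to 5273 on E14.5 replicate 3. A group of 7 unnamed probe sets read at least 1501 on the 18 arrays up to P14 and at most 12.8 on the 14 later arrays. For P28 against P14 and 2 months against E14.5, age and this division of the arrays therefore cannot be told apart, and the tests over the 12 ages span it. In whole corneas, fewer cells of a type and less RNA per cell cannot be told apart either.

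Over the 12 ages 15 of the 25 tested members changed, among 40.6% of all genes tested. All 5 antagonists and all 3 response genes were among them, with 6 of 10 receptors and 1 of 7 ligands. The age with the highest mean was E14.5, E15.5 or E17.5 for 16 of the 25, or 64%, and for 36.7% of all genes tested. It was an age from P28 on for 6 of the 25, or 24%, and for 53.9% of all genes. These counts are descriptions, since the highest age was not tested against the others, and 10 of the 25 members were not called over the ages. Within E14.5 to P14, 12 members changed, among 19.6% of all genes. Within P28 to 2 years, 4 changed, Wnt5a, Fzd3, Sfrp2 and Dkk2, among 6.77% of all genes.

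**Figure D1:**
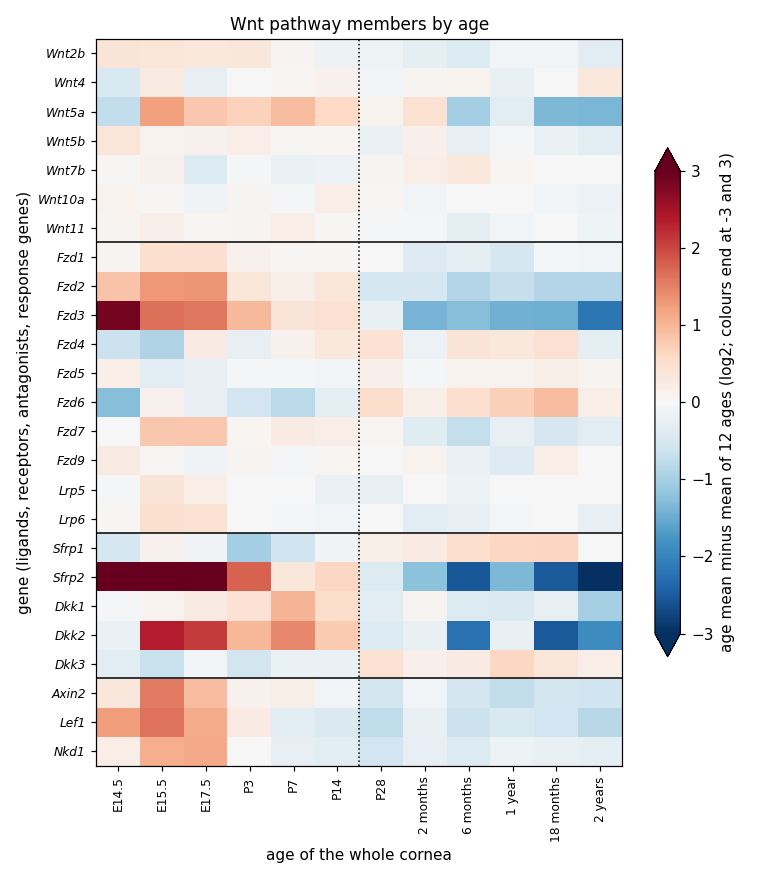
Mean log2 intensity of each tested member at each age, minus that member's mean over the ages, with colours ending at 3 above and below. Columns are the 12 ages in order, and a dotted line separates the arrays up to P14 from those after it. The 3 response genes and the called receptors Fzd1, Fzd2, Fzd3 and Fzd7 have their highest mean at an embryonic age, while Wnt4, Wnt7b, Fzd4, Fzd6, Sfrp1 and Dkk3 have it at an age from P28 on.

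Among the ligands, Wnt5a changed over the 12 ages (range of the age means 2.60 log2, adjusted p = 6.04e-07 by limma). WNT5A is best known for signalling without beta-catenin, in cell movement and planar polarity. It read 1155, 1294 and 1587 on the E15.5 arrays, against 523.9, 493.3 and 138.4 on the E14.5 arrays. The arrays of the 2 ages did not overlap, and Wnt5a rose by 1.95 ± 0.32 (SE) log2 (limma adjusted p = 4.84e-05). From E17.5 to P14 its age means lay between 861 and 1108, and the P28 mean was 605 ± 52.9 (SD, n = 3).

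In the adult Wnt5a was called at 1 step between neighbouring ages, where it fell. It read 198.2 and 367.7 on the 6-month arrays, against 704.2, 797.4 and 827.5 on the 2-month arrays, a difference of -1.46 ± 0.36 log2 (limma adjusted p = 0.0292), among 1.04% of all genes called lower. It was 474 and 429.9 at 1 year, 194.1 and 227.6 at 18 months, and 140.9 and 302.1 at 2 years, so the 1-year arrays stood above the ages on either side. Stromal marker sums also differed between these ages: 16800 to 22240 at 2 months, 4905 to 8294 at 6 months, 12770 to 17540 at 1 year, 4949 to 6713 at 18 months and 3253 to 11620 at 2 years. Corneal endothelial markers summed to between 4646 and 5800 at 6 months, against 8142 to 9544 at 2 months. The part of either cell type in the Wnt5a values was not tested. Without the 6-month array high in retina genes, replicate 1, the difference was -1.04 log2. Only replicate 2 is then left at that age, so no call is read from that fit. With quantile normalization the call was lost (-1.46 log2, limma adjusted p = 0.0527). The call at 6 months was lost without 2-month replicate 2 (limma adjusted p = 0.0932) or 3 (limma adjusted p = 0.0887). The labels mark those 2 arrays 1B and 1A, which may be related samples, and with the pair averaged the call was lost too (-1.43 log2, limma adjusted p = 0.1).

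The other 6 tested ligands were Wnt2b, Wnt4, Wnt5b, Wnt7b, Wnt10a and Wnt11. Their age means spanned 0.38 (Wnt10a) to 0.80 log2 (Wnt2b), under the limit for a call. Wnt2b, a canonical ligand known from the ciliary margin of the eye, had its highest mean at E14.5, 257, and its lowest at 6 months, 139. Wnt4 has 2 probe sets, and they differed in size of change. The brighter, which was used, read 817.5, 1325 and 1367 at E15.5, against 791.7, 653.8 and 606.3 at E14.5. The dimmer averaged 406 ± 157 at E15.5 and 111 ± 68 at E14.5 (SD, n = 3 each). With both averaged, Wnt4 rose by 1.30 log2 at E15.5 (limma adjusted p = 9.87e-05) and by 1.35 log2 at 2 months against E14.5 (limma adjusted p = 3.19e-05). It was then also called over the 12 ages and within E14.5 to P14, which makes 2 of 7 ligands.

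Of the receptors, Fzd1, Fzd2, Fzd3, Fzd4, Fzd6 and Fzd7 changed over the 12 ages. Frizzled proteins are the membrane receptors for Wnt, and FZD3 and FZD6 are best known for planar polarity and the guidance of axons and hair. Fzd3 had the widest span of the receptors, 5.03 log2 (limma adjusted p = 1.85e-13). It read 1178, 1842 and 2552 at E14.5, 656.3, 750.8 and 893.8 at E15.5, 858.8, 613.1 and 712.2 at E17.5 and 341.2, 466.6 and 630.1 at P3. At P7 it was 341.8, 359.5 and 235.1, and at P14 380.2, 360.2 and 244.2. It was 234.4, 183.6 and 168.6 at P28 and 66.87, 89.26 and 79.21 at 2 months, and from 6 months on its arrays lay between 27.94 and 102.2.

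Fzd3 fell in each of 4 comparisons that limma tested. At E15.5 it was lower than at E14.5 (-1.20 ± 0.25 log2, adjusted p = 0.000599), and at P14 lower than at E15.5 (-1.20 ± 0.25 log2, adjusted p = 0.00143). At 2 months it was lower than at P28 (-1.16 ± 0.25 log2, adjusted p = 0.00288), and lower than at E14.5 (-4.25 ± 0.25 log2, adjusted p = 1.14e-12). In none of the 4 did the arrays overlap. The 2-month values lie well below the array medians and were not shown to be above background, so the size of the differences at 2 months depends on the offset: the one against E14.5 was -4.49 log2 with an offset of 1 and -3.69 with 64. It was the only member called at 2 months against P28, where 1.5% of all genes were lower, and with an offset of 64 it was under the limit there (-0.86 log2). E14.5 replicates 2 and 3, the 2 with the highest Fzd3, were also the arrays high in lens genes. The E15.5 difference was -0.94 log2 without replicate 3. It was -0.62 log2 without the lens-high arrays, which leaves only replicate 1 at E14.5.

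**Figure D2:**
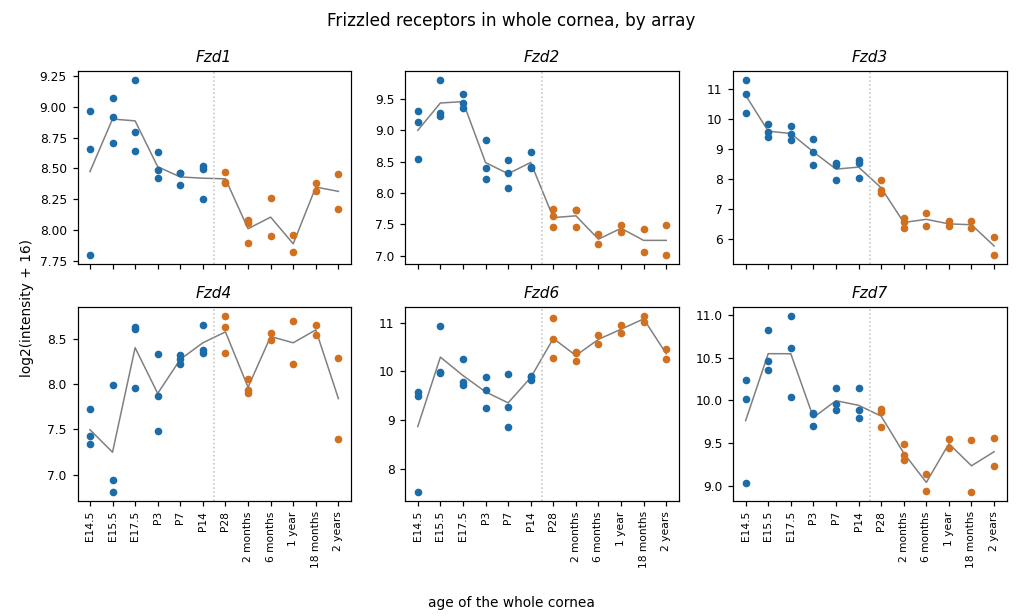
Values of the 6 Frizzled genes called over the 12 ages, as log2(intensity + 16) on each of the 32 whole-cornea arrays, by age. Points are arrays, blue up to P14 and orange after it, and lines join the age means. Fzd3 is at or above 1178 on the E14.5 arrays and at or below 102.2 on the arrays of 2 months and later.

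Fzd2 and Fzd7 are receptors known to couple to both branches of the pathway. Fzd2 read 602, 585.1 and 883 at E15.5, 674.4, 642.9 and 751.3 at E17.5 and 444, 320.1 and 282.7 at P3. Its 2-month arrays, 159.2, 195.5 and 196.8, lay below those of E14.5, 622.2, 546.1 and 359.1, and limma called it lower (-1.36 ± 0.19 log2, adjusted p = 3.04e-06). At P28 it read 198, 159.5 and 181.8, against 387.5, 320.6 and 325.2 at P14. That difference, -0.88 log2 (limma adjusted p = 0.00127), was under the limit of 1. Fzd7 read 1793, 1296 and 1397 at E15.5, 1546, 1037 and 2018 at E17.5, 701.9, 612 and 641.6 at 2 months and 475.4 and 545.4 at 6 months, its lowest age. It changed over the 12 ages (1.51 log2, limma adjusted p = 9.73e-05) and in none of the comparisons between ages, though it was called at E15.5 against E14.5 without E14.5 replicate 1 (limma adjusted p = 0.00213). Its E14.5 arrays, 1194, 1021 and 506.2, overlapped those of P7 and P14.

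Fzd6 and Fzd4 had higher values later. Fzd6 read 998.7, 986.8 and 1932 at E15.5, against 707.1, 750.1 and 168.6 at E14.5 (1.43 ± 0.37 log2, limma adjusted p = 0.00389). At 2 months it read 1167, 1312 and 1336, 1.46 ± 0.37 log2 above E14.5 (limma adjusted p = 0.00221), and its highest mean was 2150 ± 129 at 18 months (SD, n = 2). Without E14.5 replicate 3 both differences fell below 1, to 0.76 and 0.79 log2. Fzd4, the receptor for norrin as well as for Wnt, read 385.7, 307.5 and 316.1 at P14, against 237.8, 107.2 and 96.4 at E15.5. It rose by 1.21 ± 0.26 log2 (limma adjusted p = 0.00175), and by 0.99 without E15.5 replicate 3. It was also called at E17.5 against E15.5, among 0.392% of all genes higher, with 380.8, 232.2 and 375 at E17.5. That difference, 1.15 log2 (limma adjusted p = 0.0293), came with arrays that overlapped. It was 0.71 log2 without the arrays high in muscle or retina genes, which leaves only replicate 2 at E17.5. Leaving out E15.5 replicate 2 or 3 or E17.5 replicate 1 or 3 ended the call, with limma adjusted p between 0.0903 and 0.288. Fzd1 spanned 1.01 log2 (limma adjusted p = 0.00218), with its highest mean at E15.5, from 467, 402.6 and 522.7, and its lowest at 1 year, from 210 and 232.2. Its span fell under 1 without E15.5 replicate 3 or 1-year replicate 1.

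Fzd5, Fzd9, Lrp5 and Lrp6 were tested and not called. Lrp6, a co-receptor of the canonical branch, had the widest span of the 4, 0.83 log2, between a mean of 1279 at E15.5 and 713 at 2 months.

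The age means of the antagonists Sfrp2 and Dkk2 spanned 8.17 and 4.87 log2 with the offset of 16. Because Sfrp2 reads far below the array medians at 2 years, its span depends on the offset, and was 9.77 log2 with an offset of 1 and 6.80 with 64. SFRP2 is a secreted decoy that resembles the ligand-binding part of Frizzled. Sfrp2 read 3296, 9114 and 14920 at E14.5, 10940, 7466 and 6845 at E15.5, 7796, 8915 and 11610 at E17.5 and 3320, 2778 and 2410 at P3. At P7 it was 1036, 797.6 and 1320, at P14 1277, 1396 and 1097, and at P28 888, 440.5 and 568. It then read 155.3, 408.7 and 587.6 at 2 months, 122.4 and 131.3 at 6 months, 252.7 and 384.3 at 1 year, 103.4 and 158.3 at 18 months and 1.51 and 44.02 at 2 years.

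Apart from E14.5 replicate 1, Sfrp2 was highest on the embryonic arrays, and no array from P3 on exceeded 3320. Sfrp2 was called at the step across birth and at the next step. It fell at P3 against E17.5 (-1.72 ± 0.46 log2, limma adjusted p = 0.0175), among 1.11% of all genes, and at P7 against P3 (-1.44 ± 0.46 log2, limma adjusted p = 0.0446), among 0.639%. The first missed the threshold without E17.5 replicate 3, P3 replicate 2 or P3 replicate 3, with limma adjusted p between 0.054 and 0.0701. With an offset of 1 the first missed it too (limma adjusted p = 0.0784). The second missed it in 12 of 32 fits with 1 array left out, among them each P3 array and P7 replicates 1 and 2. It also did so with no filter on low values, an offset of 1, arrays shifted to the same median, or limma's trend and robust moderation. Under those settings the limma adjusted p lay between 0.0507 and 0.151. Without the arrays high in muscle or retina genes, the difference at P3 was -1.66 log2. Only replicate 2 is then left at E17.5, so no call is read from that fit. At P14 Sfrp2 was lower than at E15.5 (-2.70 ± 0.46 log2, limma adjusted p = 0.000173), and at 2 months lower than at E14.5 (-4.44 ± 0.46 log2, limma adjusted p = 2.29e-08). The arrays did not overlap in any of these. Within P28 to 2 years its age means spanned 4.26 log2.

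DKK2 acts on LRP co-receptors. Dkk2 read 6606, 5197 and 6959 at E15.5, against 3488, 1213 and 252.7 at E14.5, and rose by 2.57 ± 0.51 log2 (limma adjusted p = 0.000386). The 3 arrays of E14.5 themselves spread widely, and the lowest was replicate 3. The rise was 1.58 log2 without that array. It was 0.83 log2 without the arrays high in lens genes, which leaves only replicate 1 at E14.5. At P14 it read 3076, 1874 and 1566, lower than at E15.5 (-1.57 ± 0.51 log2, limma adjusted p = 0.0326), with no overlap. Leaving out any of the 6 arrays compared other than P14 replicate 1 took that adjusted p above the threshold, to between 0.0506 and 0.129.

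In the adult Dkk2 varied from age to age. It read 947.1, 939.1 and 822.8 at P28, 898.1, 1132 and 1075 at 2 months, 165.4 and 344.1 at 6 months, 1232 and 841.9 at 1 year, 234.6 and 165.1 at 18 months and 229.8 and 429.5 at 2 years. The ages from P28 on differed (range 2.30 log2, limma adjusted p = 0.00767). The 6-month and 18-month arrays lay below both neighbours in age except where 18 months and 2 years overlapped. The fall at 6 months, -2.03 log2 against 2 months, was not called (limma adjusted p = 0.053). Wnt5a, Sfrp2 and Dkk2 were all higher on the 1-year arrays than on those of 6 or 18 months, as were the stromal marker sums given above.

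**Figure D3:**
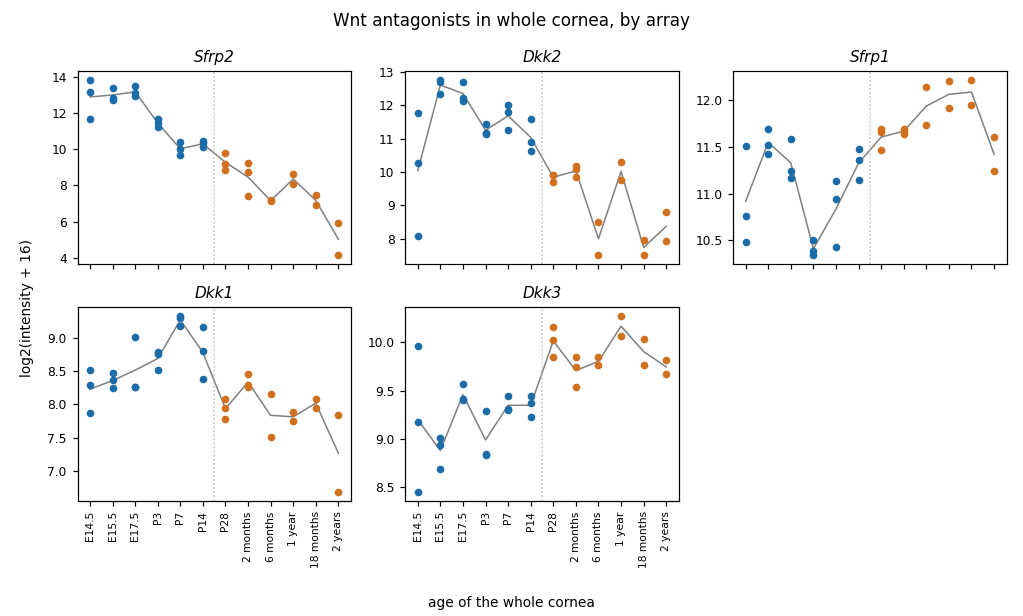
Values of the 5 tested antagonists, as log2(intensity + 16) on each of the 32 whole-cornea arrays, by age. Points are arrays, blue up to P14 and orange after it, and lines join the age means. Sfrp2 is at 3296 or more before birth and at 44.02 or less at 2 years, and Dkk2 is lowest at 18 months.

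SFRP1, another decoy, had a different course. Sfrp1 read 1441, 1282 and 1322 at P3, its lowest age, and its highest mean was 4332 ± 565 at 18 months (SD, n = 2). Over the 12 ages it changed by limma's test (range 1.67 log2, adjusted p = 2.56e-06). At 2 months it read 3285, 3158 and 3238, against 1419, 2887 and 1719 at E14.5, a difference of 0.75 log2 (limma adjusted p = 0.00354) that was under the limit. It was called without E14.5 replicate 2 (1.04 log2, limma adjusted p = 6.66e-05). Without the lens-high arrays, which leaves only replicate 1 at E14.5, the difference was 1.16 log2. Dkk1, the LRP-binding inhibitor needed for head formation, peaked at P7 with 615.4, 630.6 and 568.2 and had its lowest mean at 2 years, 86.58 and 214 on the 2 arrays. Dkk3, a DKK family member that does not act through LRP in the usual way, changed over the 12 ages (1.29 log2, limma adjusted p = 0.000265). It read 498.6, 398 and 475.2 at E15.5, its lowest age, and 1053 and 1221 at 1 year, its highest.

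The response genes are known for transcription that beta-catenin raises: AXIN2 and NKD1 feed back to limit the pathway, and LEF1 is one of its DNA-binding factors. Signalling itself was not measured here. All 3 changed over the 12 ages and had their highest mean before birth. Axin2 read 1043, 1342 and 1402 at E15.5, against 860.1, 726 and 231.8 at E14.5, and rose by 1.22 ± 0.30 log2 (limma adjusted p = 0.00243). Without E14.5 replicate 3 this was 0.65 log2 (limma adjusted p = 0.023).

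All 3 then fell between E15.5 and P14. Axin2 read 518.6, 387.5 and 287.6 at P14, and was lower than at E15.5 (-1.65 ± 0.30 log2, limma adjusted p = 0.000329). Lef1 read 265, 270.7 and 286 at P14, against 813.5, 1489 and 1410 at E15.5, a difference of -2.06 ± 0.27 log2 (limma adjusted p = 6.82e-06). Nkd1 read 474.2, 445.1 and 418.8 at P14, against 1898, 1348 and 696.8 at E15.5, a difference of -1.41 ± 0.22 log2 (limma adjusted p = 5.09e-05). No P14 array reached the lowest E15.5 array for any of the 3 genes.

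For Nkd1 the step around birth was called: it read 577.2, 566.6 and 541.4 at P3, against 1385, 1134 and 1278 at E17.5 (-1.15 log2, limma adjusted p = 0.00168). Without the arrays high in muscle or retina genes, which leaves only replicate 2 at E17.5, it was -0.99 log2. Lef1 was 411.2, 526.8 and 431.3 at P3 and 299.3, 243.5 and 348.4 at P7. At 2 months Lef1 read 305.3, 384 and 288.6, against 1219, 1284 and 499.2 at E14.5, and was lower (-1.47 ± 0.27 log2, limma adjusted p = 8.45e-05). Axin2 and Nkd1 were not called in that comparison. Without the lens-high arrays, which leaves only replicate 1 at E14.5, the Axin2 difference was -1.11 log2. From P28 to 2 years the age means of the 3 genes spanned 0.42 (Nkd1) to 0.65 log2 (Axin2).

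**Figure D4:**
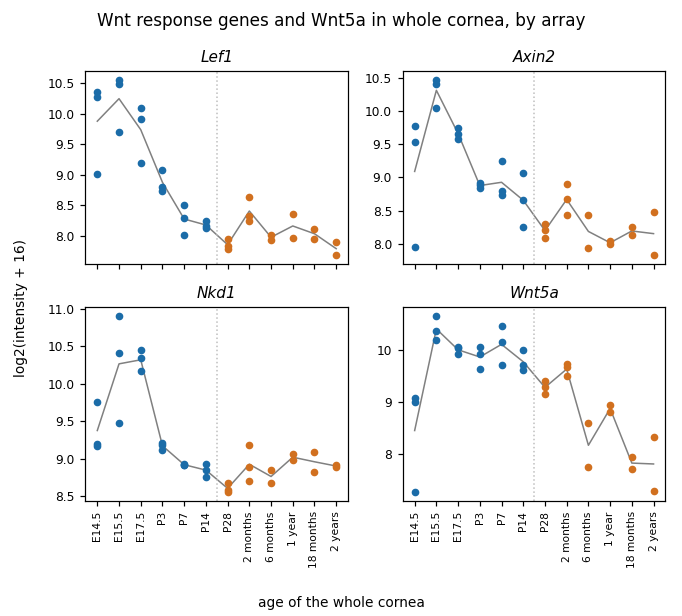
Values of Lef1, Axin2, Nkd1 and Wnt5a, as log2(intensity + 16) on each of the 32 whole-cornea arrays, by age. Points are arrays, blue up to P14 and orange after it, and lines join the age means. For Lef1, Axin2 and Nkd1 every P14 array lies below every E15.5 array. Wnt5a is lowest on E14.5 replicate 3, at 138.4.

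The sequences before the annotated starts of these 3 genes are shown because beta-catenin acts through TCF and LEF factors, whose sites hold the core CTTTG. They are 250 bases from RefSeq on build GRCm38.p6, each on the plus strand and written toward the start: Lef1 at chr3:131110047-131110296, Axin2 at chr11:108920099-108920348 and Nkd1 at chr8:88527383-88527632. Capitals mark the core on either strand. Lef1 has 4 promoters in the table, and the one with the lowest start coordinate is shown.
Lef1: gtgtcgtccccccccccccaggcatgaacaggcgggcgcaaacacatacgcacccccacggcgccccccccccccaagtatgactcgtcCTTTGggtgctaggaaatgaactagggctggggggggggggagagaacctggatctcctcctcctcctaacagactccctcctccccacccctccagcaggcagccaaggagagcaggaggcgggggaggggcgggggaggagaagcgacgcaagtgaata
Axin2: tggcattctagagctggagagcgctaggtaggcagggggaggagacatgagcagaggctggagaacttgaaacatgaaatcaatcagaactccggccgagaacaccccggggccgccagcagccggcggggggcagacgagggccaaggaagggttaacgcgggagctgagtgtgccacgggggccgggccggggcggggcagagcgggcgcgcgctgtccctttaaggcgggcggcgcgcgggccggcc
Nkd1: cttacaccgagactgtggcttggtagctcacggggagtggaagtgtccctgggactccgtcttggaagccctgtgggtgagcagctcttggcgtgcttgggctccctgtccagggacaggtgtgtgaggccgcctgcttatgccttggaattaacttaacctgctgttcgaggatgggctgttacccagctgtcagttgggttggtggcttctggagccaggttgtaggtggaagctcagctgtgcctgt
Lef1 holds 1 core, which begins 161 bases before the start, and the other 2 windows hold none. Of the members, 28 had a promoter in the table, 35 promoters in all. The core was in 42.9% of these, and in 48.6% of all 32851 promoters. The longer sites CTTTGAA and CTTTGAT, read on both strands, were in 8.57% of member promoters and 7.48% of all. A match is a string of letters and not a site shown to be bound.

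Read by comparison, at E15.5 against E14.5 4 members rose, Wnt5a, Fzd6, Dkk2 and Axin2, among 7.35% of all genes, and Fzd3 fell, among 3.1%. The median difference of the 25 members was 0.37 log2 and that of all genes 0.01. Without E14.5 replicate 3, which had the lowest Wnt5a, Dkk2, Fzd6, Axin2 and Lef1 of its age, 2 members were called, Wnt5a and Dkk2. Replicate 3 also had the lowest marker sums of that age. Its epithelial sum was 2280, against 6053 and 8729 on replicates 1 and 2, and its stromal sum 3247, against 11970 and 9031. Without the arrays high in lens genes only replicate 1 remains at E14.5, so calls are not counted for that fit. Epithelial and stromal marker sums rose together at this step, while cell-cycle marker sums fell. The cell-cycle sums ran from 2871 to 4768 at E15.5, against 9844 to 17110 at E14.5. The part of any of these in the member values was not tested.

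At P14 against E15.5 Fzd4 rose, among 3.21% of all genes, and 6 members fell, among 1.98%: Fzd3, Sfrp2, Dkk2, Axin2, Lef1 and Nkd1. The median difference was -0.48 log2 for the members and -0.03 for all genes. These 3 E15.5 arrays also enter the step before, so a high value there moves both differences. Stromal marker sums ran from 31350 to 44350 at P14, against 44450 to 52360 at E15.5. Epithelial sums ran from 48270 to 60600 at P14, against 28900 to 40480 at E15.5, and conjunctival and eyelid markers from 9650 to 11990 at P14, against 4341 to 7048 at E15.5. Their part in the member values was not tested.

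At P28 against P14 limma called no member, with 7 at an unadjusted p under 0.05, among 7.64% of all genes called. With quantile normalization Sfrp2 was called (-1.25 log2, limma adjusted p = 0.0467). Without the lens-high arrays Fzd6 (1.03 log2, limma adjusted p = 0.0307) and Dkk2 (-1.30 log2, limma adjusted p = 0.00922) were. Dkk1 read 204.8, 230.2 and 254.2 at P28, against 317.2, 560.1 and 431.5 at P14, a difference of -0.85 log2 (limma adjusted p = 0.00929) under the limit. Stromal marker sums were 17270 to 19920 at P28, against 31350 to 44350 at P14.

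At 2 months against E14.5, which also spans the division of the arrays, Wnt5a and Fzd6 rose, among 10.3% of all genes. Fzd2, Fzd3, Sfrp2 and Lef1 fell, among 6.02%. Wnt5a read 704.2, 797.4 and 827.5 at 2 months, against 523.9, 493.3 and 138.4 at E14.5, which is 1.18 ± 0.32 log2 (limma adjusted p = 0.00435). Without E14.5 replicate 3 it was 0.59 log2 (limma adjusted p = 0.0557), and the 4 falls were still called. Without the lens-high arrays, which leaves only replicate 1 at E14.5, Wnt5a and Fzd6 differed by 0.62 and 0.89 log2. Sfrp1, Dkk2, Dkk3 and Axin2 then differed by 1.16, -1.65, 1.24 and -1.11 log2.

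For ageing, the mean of 1 year, 18 months and 2 years was set against the mean of 2 and 6 months. Limma called no member, with 3 at an unadjusted p under 0.05, among 0.677% of all genes called. The 3 were Sfrp2 (-0.96 log2, limma adjusted p = 0.114), Wnt5a (-0.73, limma adjusted p = 0.086) and Dkk1 (-0.39, limma adjusted p = 0.243). Sfrp2 lay between 1.51 and 384.3 on the 6 aged arrays, against 122.4 to 587.6 on the 5 adult arrays, so the groups overlapped. It was called with array weights (-1.08 log2, limma adjusted p = 0.0306) and without 2-month replicate 1 (-1.22, limma adjusted p = 0.0434). Without 2-year replicate 2, which leaves only replicate 1 at 2 years, the difference was -1.26 log2. Without the lens-high arrays, which leaves only replicate 1 at 6 months, it was -1.20 log2.

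The rest of the pathway was read from 4 lists. Their counts stand beside the shares of all genes given for the same comparisons. Of 19 tested genes for Wnt release, other receptors and modulators, Apcdd1 and Gpc3 rose at E15.5 against E14.5, by 1.54 and 1.28 log2, where 7.35% of all genes rose. Apcdd1, a membrane inhibitor of Wnt, fell at P14 against E15.5 by 1.85 log2. It averaged 410 ± 43.5 at P14 and 1547 ± 383 at E15.5 (SD, n = 3 each). Sostdc1, a secreted antagonist of Wnt and BMP, and Gpc4 fell at P28 against P14, by 1.97 and 1.05 log2. Sostdc1 averaged 164 ± 70.6 at P28 and 662 ± 85.8 at P14 (SD, n = 3 each). At 2 months against E14.5 Sostdc1 and Gpc3 fell, by 1.36 and 1.14 log2. With ageing Sostdc1 was the 1 call of this list (-1.30 log2, limma adjusted p = 0.0297), where 0.677% of all genes were called.

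Of 22 tested intracellular components, 4 fell at P14 against E15.5, where 1.98% of all genes fell, among them Tle1, a co-repressor of TCF factors, by 1.36 log2, Dvl3 by 1.22 and Bcl9, a partner of beta-catenin, by 1.09. At P28 against P14 Pygo1, which binds the BCL9 proteins, was the 1 call, lower (-1.74 log2), where 7.64% of all genes were called. At 2 months against E14.5 Pygo1, Tle1 and Bcl9 fell, by 2.45, 1.97 and 1.06 log2, and no gene of this list was called higher in the 6 comparisons. Of 8 tested planar polarity genes Daam2 fell at P14 against E15.5, by 1.02 log2, and was the 1 call in these comparisons, against 1.98% of all genes lower at that step. Of 6 tested genes known as Wnt targets elsewhere, Cd44, a hyaluronan receptor, and Twist1 rose at E15.5 against E14.5 by 2.41 and 1.56 log2, and Ccnd1, a cell-cycle cyclin, fell by 1.64. Twist1 fell at P14 against E15.5 by 1.43 log2 and at P28 against P14 by 1.30 log2, where Cd44 rose by 1.60 log2. Cd44 averaged 3218 ± 134 at 2 months and 156 ± 61.4 at E14.5 (SD, n = 3 each), opposite in direction to Lef1 in that comparison.

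The epithelium of P28 was set against the stroma of P7 with 1 array each, so there is no replicate check and no test. Age, layer and method of isolation cannot be told apart. Of the members, 20 lay above the median on either array. Their median difference, epithelium minus stroma, was -0.35 log2, against 0.003 for all 11107 such genes. All 20 were above the median in stroma and 15 in epithelium, so 5 entered through the stroma array alone. Over the 15 above it on both arrays the median was -0.34 log2, against 0.004 for all 8592 such genes, a set chosen after seeing the data. At a 4-fold difference 0 members were higher, among 0.576% of genes, and 1 was lower, among 1.37%.

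That gene was Sfrp4, a secreted decoy, with 207 on the epithelium array and 1734 on the stroma array. On the whole corneas of P7 Sfrp4 read 107, 86.89 and 123.5, and on none of the 32 whole-cornea arrays did it lie above the median. At 2-fold, Sfrp1 was higher, among 3.88% of genes, with 3138 in epithelium and 1370 in stroma. Fzd3, with 193 in epithelium and 702 in stroma, was lower, as was Sfrp4, among 4.61%. Axin2 read 351 in epithelium and 686 in stroma, and Lef1 688 in epithelium and 1135 in stroma. Whole corneas averaged less for Lef1, 216 at P28 and 297 at P7. They averaged more for Dkk2 at P7, 3345, against 831 on the stroma array. Layer and whole-cornea values may therefore not share a scale. Wnt4 and Fzd4 differed by 0.02 log2 each between the layers.

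The stroma array held other tissue. Lens genes summed to 4626 on the epithelium array and 86800 on the stroma array, and muscle genes to 3109 and 15270 in the same order. Epithelial markers summed to 53260 on the epithelium array and still to 20370 on the stroma array, and stromal markers to 4697 on the epithelium array and 26400 on the stroma array. Pigment genes summed to 2401 on the epithelium array and 5346 on the stroma array. Conjunctival, eyelid and skin markers summed to 3540 and 8018 in the same order, and to between 7091 and 9840 on whole corneas of P7. Among them Krt1, Krt10 and Lor read 1932, 2531 and 1050 on the stroma array, against 559.4, 343.9 and 450.8 on the epithelium array. Muc5ac and Krt4 were not higher on the stroma array. The part of any of these tissues in the member values was not tested.

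**Figure D5:**
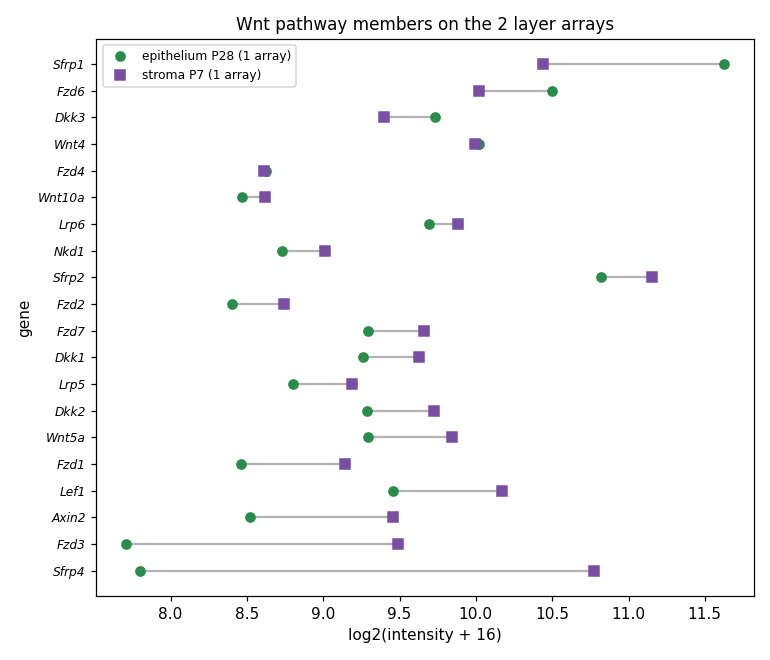
Values of the 20 members above the median on either layer array, as log2(intensity + 16), with a green circle for the epithelium of P28 and a purple square for the stroma of P7, 1 array each. Sfrp4 and Fzd3 lie furthest apart with the stroma higher, and Sfrp1 with the epithelium higher.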

How the data were processed

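RNA of whole corneas and of 2 corneal layers was measured on 34 Affymetrix arrays. The deposited values are intensities on a linear scale, and per the submitters' processing notes the authors used PLIER in Affymetrix Expression Console 1.1. The genome build of the files is not given in the sources used here. The table held 35557 probe sets and 2 missing values: 21789 had 1 symbol in the annotation given, 1621 several and 12147 none. Array medians lay between 188.2 and 240.6 for whole corneas and were 318 (epithelium) and 321 (stroma), where the lowest values, 41.8 and 42.6, were higher than on the whole-cornea arrays. Arrays of an age correlated with r of 0.879 to 0.985 over 28 pairs. The number of arrays limits the precision.

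From the authors' intensities, log2(value + 16) was computed with no further normalization between arrays. Limma 3.58.1 under R 4.3.3 (lmFit, eBayes) fitted a mean for each age on all 32 whole corneas, with 20 residual and 4.1 prior degrees of freedom. Two-sided p-values were adjusted over the 12996 genes by Benjamini and Hochberg's method. The layer arrays entered no fit. The members and all gene lists were chosen with earlier results of these data known. Values per array are given for called members at the ages compared, or at their highest and lowest ages. Pathway genes are named as the 3 largest called changes per direction, list and comparison, or fewer. Steps between neighbouring ages were added after seeing the data. On simulated data for E15.5 against E14.5, with 12996 genes, the fit recovered 97 of 100 changes of 1.5 log2 and 99 of 100 of 2 log2, with 1 false call. Alternatives tried were other filters, offsets, normalizations, probe set rules, moderation, array weights, thresholds, the replicate number as a block, arrays of 2 months averaged, arrays high in other tissues left out, and each array left out in turn.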

Additional observations from a re-analysis of the deposited data

How the results depend on the processing

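With no minimum log2 difference 23 members were called over the 12 ages (79.9% of all genes), 12 at E15.5 against E14.5 (36.4%), 11 at P14 against E15.5 (18.9%), 4 at P28 against P14 (31.9%) and 10 at 2 months against E14.5 (45.3%). With an offset of 64 the count at 2 months against P28 was 0. Quantile normalization gave 1 at P28 against P14, and array weights 1 for ageing. Without the arrays high in lens genes there were 2 at P28 against P14 and 1 for ageing. Comparisons with E14.5 are not counted for that fit, because only replicate 1 remains at that age. At 2-fold 3 members differed between the layers. Leaving out 1 array at a time gave 14 to 15 members over the 12 ages, 10 to 13 within E14.5 to P14, 4 to 5 within P28 to 2 years, 2 to 7 at E15.5 against E14.5, 5 to 8 at P14 against E15.5, 0 to 2 at P28 against P14, 1 at 2 months against P28, 4 to 7 at 2 months against E14.5 and 0 to 1 for ageing. The 2 at E15.5 came without E14.5 replicate 3, and the most at P28, 2, without E14.5 replicate 1, which is in neither group and moves only the shared spread. P28 against P14 gave 1 without E14.5 replicate 3 or P14 replicate 1, and ageing gave 1 without 2-month replicate 1. Ageing also gave 1 without 2-year replicate 2, which leaves only replicate 1 at 2 years. Beyond what their construction shows, the causes were not tested. No called difference of a member between ages changed sign under an alternative. A range of age means cannot change sign, since it is never negative.

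With the replicate number as a block, 15 members were called over the 12 ages, as without it, and no call of a member changed. Arrays with the same number did not pair: their deviations from the age means correlated with a median r of -0.013 over 160 pairs of different ages, and those with different numbers of 0.007 over 308 pairs. Quantile normalization moved the calls of all genes at P28 against P14 to 309 higher and 481 lower, against 538 and 455, and the median of all genes to -0.01 log2, against 0.11. At 2 months against P28 the share of higher calls was 29.1%, 39.3% with quantile normalization and 17.5% with arrays shifted to the same median. That shift moved the median of all genes at E15.5 against E14.5 to 0.13 log2, against 0.01.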
